A study of Mus musculus with 3 samples.

Results

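The sodium pump and the water channels that fill the blastocyst cavity were followed through 3 states of delayed implantation, by 8 genes chosen by name among the 31510 of the deposited tables. They were the beta subunits Atp1b1, Atp1b2 and Atp1b3 of the sodium pump, the aquaporins Aqp3, Aqp8, Aqp9 and Aqp11, and Slc9a3r1, which encodes the scaffold protein NHERF1. Of these, 5 carried their symbol in the tables, and Atp1b2, Aqp8 and Aqp9 were found by Ensembl ID. All 3 states came from CD-1 mothers, labelled as 2 months old, whose ovaries were removed on day 4 of pregnancy and who then had 2 mg of progesterone each day on days 5 to 7. Dormant blastocysts had no estradiol (E2) and were flushed from the uterus on day 8. Reactivating blastocysts were taken 6 h, and reactivated blastocysts 12 h, after an injection of E2 on day 7 (the dose is not given in the sources used here). Each state was 1 library of RNA from a pool of more than 3000 whole blastocysts, depleted of ribosomal RNA and read as 50 bp single-end SOLiD reads. Without a second library no difference between states had a replicate check, and no p-value can be given. A day of collection was stated for dormant blastocysts alone. Length of delay may therefore differ between dormant and E2-treated blastocysts together with E2, and the part of each was not tested. Below, "fell" and "rose" compare levels between libraries and name no cause.

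The mammalian blastocyst is a ball of trophectoderm, an epithelium, around a fluid-filled cavity and the inner cell mass. The sodium pump (Na,K-ATPase) of the trophectoderm moves sodium towards the cavity, and water follows, partly through aquaporins. The pump pairs a catalytic alpha subunit with a beta subunit that carries it to the membrane. In the mouse trophectoderm the proteins of Aqp3 and Aqp8 have been placed on the inner, basolateral side and that of Aqp9 on the outer, apical side. These libraries measured RNA alone, so that neither the place nor the work of any protein was seen.

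The libraries held 9298675 to 12941447 reads in exons and 3479754 to 3982790 in introns. A count of 3 reads, the limit that a count of 0 allows, equals 0.158 to 0.212 RPKM for a gene with 1 kb of exon. RPKM divides exon reads by the length of a gene's exons and by the size of the library, and so allows levels to be compared between genes. All intervals below are 95% intervals for counting error alone. The mitochondrial RNA mt-Rnr2 took 17.8%, 18.6% and 24.3% of exon reads in dormant, reactivating and reactivated blastocysts, which moves every other gene's RPKM. Across all genes tested the median log2 difference was 0.06 for reactivating against dormant, -0.07 for reactivated against dormant and -0.13 for reactivated against reactivating. Upper-quartile scaling put the last of these at 0.04. All 7 trophectoderm, all 4 inner cell mass and all 5 primitive endoderm markers stood at 1 RPKM or more in every library. Trophectoderm markers summed to 1210, 1191 and 937 RPKM in dormant, reactivating and reactivated blastocysts. Krt18 alone made up most of these sums, at 807.1, 833.5 and 624.4 RPKM. Inner cell mass markers summed to 124, 169 and 159 RPKM. Within the trophectoderm list Cdx2 and Gata3 were called lower and Elf5 higher at 12 h against dormant, by the rule given next.

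A gene was called higher or lower where log2((RPKM + 1)/(RPKM + 1)) reached 1 or -1 with at least 1 RPKM in the library with more. Changes of low genes come out smaller than they are with 1 added. Of the 8 genes 7 could be tested, since Atp1b2 stayed under 1 RPKM. At 6 h against dormant 0 of the 7 were called, where 5.75% of all 12126 genes tested were (0.974% of protein-coding genes), and 5 had counting intervals apart, where 29.8% of all genes had. At 12 h against dormant Aqp8 alone was called, lower, where 12.9% of all genes tested were called (9.16% of protein-coding genes) and 7.66% were lower, and 6 had intervals apart, where 56.2% had. At 12 h against 6 h Aqp8, Aqp9 and Aqp11 were called, all lower, where 11.4% of all genes tested were called (9.04% of protein-coding genes) and 7.63% were lower, and all 7 had intervals apart, where 55.7% had. None of the 8 was called higher in these comparisons. The 7 genes had median log2 differences of 0.21, -0.13 and -0.34 in these comparisons, beside 0.06, -0.07 and -0.13 over all genes tested. The comparisons share libraries, and so one bears on another.

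**Figure D1:**
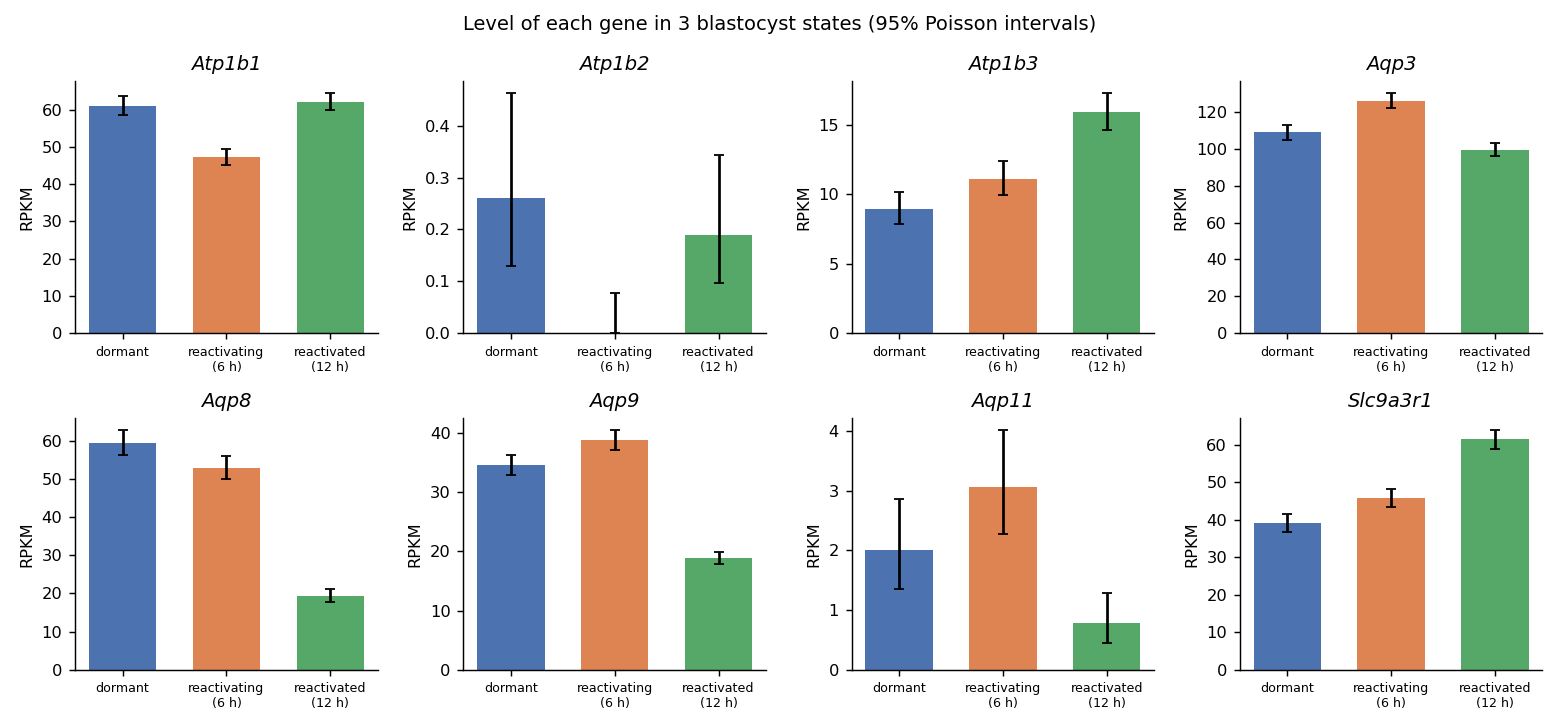
RPKM (vertical axes, each from 0 on its own scale) of the 8 genes in dormant, reactivating and reactivated blastocysts, 1 library each. Error bars are 95% Poisson intervals of the exon reads. Aqp3, Aqp8, Aqp9 and Aqp11 stand lowest at 12 h, and Atp1b3 and Slc9a3r1 stand highest there, with intervals apart from both other states.

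Among the pump genes, Atp1b1 supplied most of the beta subunit RNA in every state. Atp1b1 (ENSMUSG00000026576, GRCm38 chromosome 1, 164437109 to 164458355, minus strand) encodes the beta subunit whose knock-down in mouse embryos blocks the forming of the cavity. Its level was 61.0 RPKM in dormant (58.4 to 63.7), 47.2 in reactivating (45.0 to 49.4) and 62.1 in reactivated blastocysts (59.9 to 64.4). The reactivating library thus stood below the other two, and the intervals of the dormant and reactivated libraries overlapped. Reactivated over dormant gave a ratio of 1.02 (exact binomial interval 0.962 to 1.08), whose log2 difference of 0.03 turned to -0.02 with CPM, and reactivating over dormant gave 0.773 (0.726 to 0.824). Atp1b1 overlaps Nme7 on the other strand by 617 bases. The tables count strands apart and held 22 to 34 opposite-strand reads for Atp1b1.

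Atp1b3 (ENSMUSG00000032412, chromosome 9, 96332655 to 96364442, minus strand), the beta subunit found in many tissues, stood at 8.96 RPKM in dormant (7.85 to 10.2), 11.1 in reactivating (9.93 to 12.4) and 15.9 in reactivated blastocysts (14.6 to 17.3). The reactivated level lay above both others beyond counting error, and the intervals of the first 2 states overlapped. The ratio of reactivated to dormant was 1.78 (1.52 to 2.08), a log2 difference of 0.76 that was under the rule's threshold. Its level is uncertain, because the processed pseudogene Gm1848 matches its transcript over 805 bases at 96.4% identity. Gm1848 itself was listed at 2.33, 4.04 and 7.21 RPKM in dormant, reactivating and reactivated blastocysts, the same order of levels as Atp1b3.

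Atp1b2 (ENSMUSG00000041329, chromosome 11, 69599736 to 69605942), the beta subunit best known from glia, had 11 exon reads in dormant, 0 in reactivating blastocysts and 11 in reactivated ones. These are 0.26 RPKM, no more than 0.0636 RPKM (3 reads) and 0.19 RPKM, too low for a comparison. Of the summed beta RNA, Atp1b1 held 86.9%, 80.9% and 79.4% in dormant, reactivating and reactivated blastocysts, and Atp1b3 held 12.8%, 19.1% and 20.3%. The ratio of Atp1b1 to Atp1b3 was 6.81, 4.25 and 3.91.

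Of the 4 aquaporins measured 3 were called lower at 12 h against 6 h, where 7.63% of all genes tested were lower, and Aqp9 among them was called in 5 of 8 settings. The summed aquaporin level was 206, 222 and 140 RPKM in dormant, reactivating and reactivated blastocysts. Aqp3 held 53.0%, 56.8% and 71.2% of it, Aqp8 28.9%, 23.8% and 13.9%, and Aqp9 16.8%, 17.5% and 13.45%. The other 8 aquaporin genes together reached at most 1.28 RPKM. All 4 aquaporins stood lower in reactivated than in reactivating blastocysts with intervals apart, where 55.7% of all genes tested had intervals apart in either direction. The median log2 difference of the 4 aquaporins was -1.09, beside -0.13 for all genes tested.

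**Figure D2:**
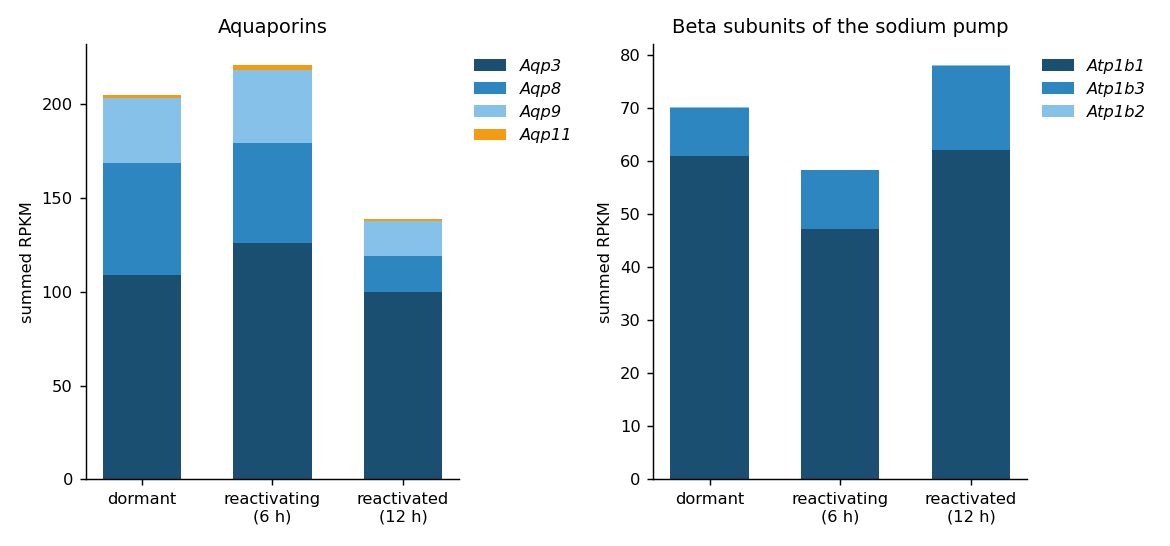
Stacked RPKM of Aqp3, Aqp8, Aqp9 and Aqp11 (left) and of the beta subunits (right) in the 3 states, 1 library each. The aquaporin sum is lowest at 12 h, where the Aqp8 and Aqp9 segments are thin and Aqp3 makes up 71.2%; Atp1b2 is too low to be seen.

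Aqp8 (ENSMUSG00000030762, chromosome 7, 123462291 to 123468004, plus strand) encodes a water channel that also passes hydrogen peroxide and ammonia. Its level was 59.4 RPKM in dormant (56.2 to 62.9, 1226 reads), 52.9 in reactivating (50.0 to 56.0, 1213 reads) and 19.4 in reactivated blastocysts (17.8 to 21.2, 539 reads). The first 2 states had intervals just apart, and the last stood far below them. It fell to a ratio of 0.327 of the dormant level in reactivated blastocysts (0.295 to 0.362), a log2 difference of -1.56, and to 0.367 of the reactivating level. The call was made in each of 8 settings of pseudocount, minimum level and scaling, with log2 differences of -1.64 to -1.45 against dormant. Among protein-coding genes Aqp8 ranked 347th, 489th and 1861st. In whole blastocysts, fewer cells of a type and less RNA per cell cannot be told apart, for this and every result here.

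Aqp9 (ENSMUSG00000032204, chromosome 9, 71110659 to 71168682, minus strand) encodes an aquaglyceroporin, a channel for water, glycerol and other small solutes. It stood at 34.5 RPKM in dormant (32.9 to 36.2), 38.9 in reactivating (37.2 to 40.6) and 18.8 in reactivated blastocysts (17.8 to 19.9). The ratio of reactivated to dormant was 0.545 (0.506 to 0.587), a log2 difference of -0.84 that was not called. Against reactivating blastocysts Aqp9 fell to 0.485 (0.451 to 0.520), a log2 difference of -1.01 just past the threshold. That call was lost with median-ratio (-0.86), upper-quartile (-0.83) and nuclear-gene scaling (-0.90). An antisense gene, Gm32511, overlaps Aqp9 over 4889 bases, and opposite-strand reads numbered 49 to 68.

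Aqp11 (ENSMUSG00000042797, chromosome 7, 97724006 to 97738289, minus strand), a channel of the endoplasmic reticulum, was near the limit of measurement. It had 30, 51 and 16 exon reads, or 2.00 RPKM in dormant (1.35 to 2.86), 3.06 in reactivating (2.28 to 4.03) and 0.79 in reactivated blastocysts (0.454 to 1.29). The reactivated interval lay below both others, which overlapped. Against reactivating blastocysts the ratio was 0.259 (0.138 to 0.462), a log2 difference of -1.18. Against dormant the log2 difference was -0.75 and not called, although a pseudocount of 0.1 in place of 1 gave -1.24. At 12 h it had 16 opposite-strand reads beside its 16 exon reads.

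Aqp3 (ENSMUSG00000028435, chromosome 4, 41092722 to 41098183, minus strand), the second aquaglyceroporin of the group, was the highest of the 8 genes in every state. It stood at 109 RPKM in dormant (105 to 113), 126 in reactivating (122 to 130) and 99.6 in reactivated blastocysts (96.3 to 103). The 3 intervals were apart, with reactivating highest. Reactivated over dormant gave 0.914 (0.868 to 0.962), a log2 difference of -0.13, and 0 of the 8 settings called it. Aqp3 stood at 1.83, 2.38 and 5.12 times the level of Aqp8 in dormant, reactivating and reactivated blastocysts.

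The sequences before the start sites of the 4 measured aquaporins are shown because 3 of them were called lower together and Aqp3 was not. They are RefSeq windows (GRCm38.p6) of 250 bases, cut at the first base that GENCODE M21 annotates as exon. The windows lie at chr7:123462044-123462290 (plus strand) for Aqp8, chr9:71162634-71162883 (minus strand) for Aqp9, chr7:97738290-97738497 (minus strand) for Aqp11 and chr4:41098184-41098433 (minus strand) for Aqp3. Each is written 5′ to 3′ on the strand of its gene, with matches to the motifs searched in capitals. For Aqp9 the window is that of the downstream of its 2 RefSeq starts.
Aqp8: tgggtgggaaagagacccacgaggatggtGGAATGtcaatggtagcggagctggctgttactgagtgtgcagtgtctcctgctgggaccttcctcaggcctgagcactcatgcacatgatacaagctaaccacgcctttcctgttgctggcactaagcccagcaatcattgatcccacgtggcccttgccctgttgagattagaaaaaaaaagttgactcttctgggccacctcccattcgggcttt
Aqp9: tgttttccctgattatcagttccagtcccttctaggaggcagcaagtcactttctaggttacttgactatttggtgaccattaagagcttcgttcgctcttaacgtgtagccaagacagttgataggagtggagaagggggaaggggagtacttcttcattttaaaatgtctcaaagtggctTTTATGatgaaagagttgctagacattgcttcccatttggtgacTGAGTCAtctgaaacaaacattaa
Aqp11: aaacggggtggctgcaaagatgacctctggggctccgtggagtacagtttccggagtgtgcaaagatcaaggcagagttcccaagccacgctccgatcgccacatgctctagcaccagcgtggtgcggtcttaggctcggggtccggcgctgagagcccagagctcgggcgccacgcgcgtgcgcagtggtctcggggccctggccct
Aqp3: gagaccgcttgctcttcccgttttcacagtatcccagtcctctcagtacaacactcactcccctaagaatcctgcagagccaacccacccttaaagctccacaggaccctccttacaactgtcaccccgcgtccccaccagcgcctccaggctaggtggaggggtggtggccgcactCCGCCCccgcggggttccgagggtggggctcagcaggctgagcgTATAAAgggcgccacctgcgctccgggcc
Both strands were searched for the TATA box TATAAA, the CCAAT box of those letters, the GC box GGGCGG, the AP-1 motif TGANTCA, the GATA motif AGATAA, the STAT motif TTCNNNGAA, the TEAD motif GGAATG and the CDX motif TTTATG. The Aqp3 window holds a TATA box at positions -29 to -24 from the start site and a GC box at -73 to -68, motifs found in 12.4% and 32.7% of all 32851 RefSeq windows of this length. The Aqp8 window holds GGAATG at -221 to -216 (12.6% of windows). The Aqp9 window holds TGAGTCA, a match to the AP-1 motif, at -24 to -18 (6.75% of windows) and TTTATG at -68 to -63 (10.8%). The window of the other Aqp9 start, not printed, held none of the 8 motifs. None of the 8 motifs is in the Aqp11 window, and no matches overlapped. GC content was 52.4% for Aqp8, 41.6% for Aqp9, 67.2% for Aqp11 and 64% for Aqp3, over the full 250 bases, beside a median of 52.4% over all windows. The ratio of observed to expected CpG was 0.291, 0.282, 0.835 and 0.57 in the same genes, and the 3 called lower ranged from under the median of all windows (0.374) to well over it. A match describes letters and is no sign of binding.

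Slc9a3r1 (ENSMUSG00000020733, chromosome 11, 115163341 to 115181181, plus strand) encodes NHERF1, a scaffold that ties transporters such as the sodium-proton exchanger NHE3 to ezrin under the apical membrane. It stood at 39.1 RPKM in dormant (36.8 to 41.5), 45.8 in reactivating (43.4 to 48.2) and 61.4 in reactivated blastocysts (58.9 to 64.0). The 3 intervals were apart, and the level was lowest in dormant and highest in reactivated blastocysts. Reactivated over dormant gave a ratio of 1.57 (1.46 to 1.69), a log2 difference of 0.64 that was under the threshold in each of the 8 settings. A processed pseudogene, Gm37103, matches the transcript over 115 bases at 98.3% identity.

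In order of level, Aqp3 led in each state. Dormant blastocysts had Atp1b1 and Aqp8 next, with intervals that overlapped, then Slc9a3r1, Aqp9, Atp1b3, Aqp11 and Atp1b2, each apart from its neighbour. In reactivating blastocysts Aqp8 stood second and Atp1b1 and Slc9a3r1 overlapped behind it. In reactivated blastocysts Atp1b1 and Slc9a3r1 overlapped next, and Aqp8 and Aqp9 overlapped below them at 19.4 and 18.8 RPKM.

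Reads in introns, which can come from RNA not yet spliced, did not follow the exon reads of every gene. Aqp8 had 88, 126 and 143 intron reads in dormant, reactivating and reactivated blastocysts. Its share of reads in introns was 6.70% (Wilson interval 5.47 to 8.18%), 9.41% (7.96 to 11.1%) and 20.97% (18.1 to 24.2%). The reactivated share stood above both others, while over all genes the share was 27.7%, 25.1% and 23.5%. Scaled to the library totals, intron reads of Aqp8 in reactivated over dormant gave 1.21 (0.920 to 1.60), beside 0.327 for its exon reads. For Aqp9 both measures were lower alike, at 0.530 (0.465 to 0.603) for introns and 0.545 for exons. Atp1b1 showed the opposite of Aqp8, with an intron ratio of 0.587 (0.533 to 0.647) beside an exon ratio of 1.02, and intron shares of 31.4%, 37.3% and 20.9%. Intron ratios of Atp1b3 (1.07), Aqp3 (1.02) and Slc9a3r1 (0.962) had intervals that held 1. Scaled to the summed intron reads in place of the library totals, the log2 intron difference of Atp1b3 was 0.36 in place of 0.10, beyond its interval, and that of Slc9a3r1 was 0.21 in place of -0.06. Under the same scaling it was 0.54 in place of 0.27 for Aqp8, within its interval. For Aqp9 it was -0.65 in place of -0.92 and for Atp1b1 -0.51 in place of -0.77, both beyond their intervals. Opposite-strand reads made up 3.86%, 4.75% and 4.87% of gene reads in dormant, reactivating and reactivated blastocysts, and those of Aqp8 numbered 0, 3 and 14. The part of such reads in the intron counts was not tested.

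**Figure D3:**
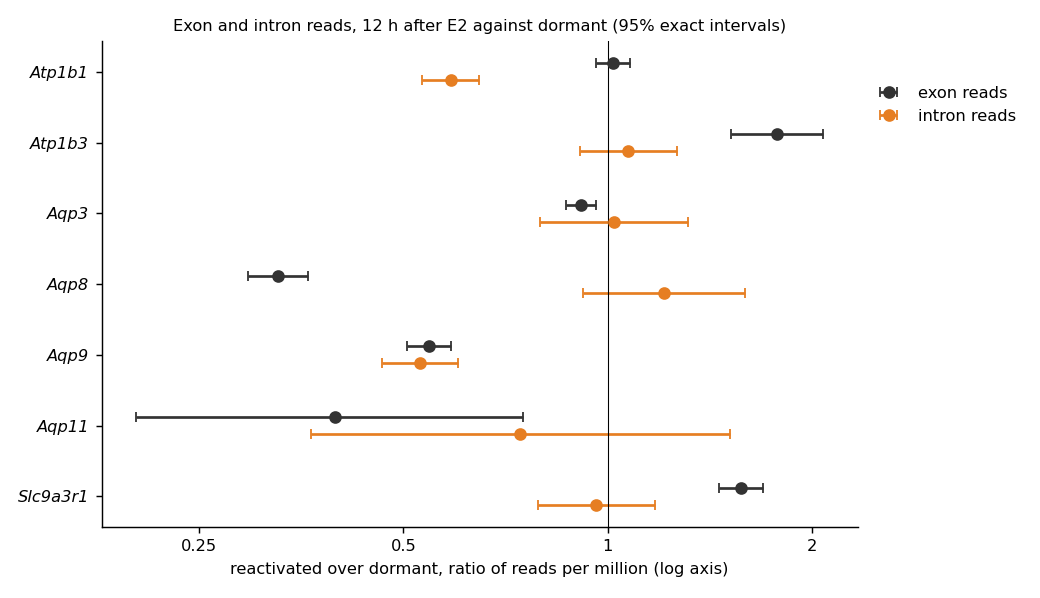
Ratio of reactivated to dormant blastocysts (horizontal axis, log scale) in exon reads and in intron reads scaled to the library totals, for the 7 genes with at least 1 RPKM. Points are ratios of 2 libraries and bars exact 95% intervals; for Aqp8 the exon point is at 0.327 and the intron point at 1.21, whereas those of Aqp9 are at 0.545 and 0.530.

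Reads across exon junctions gave a further difference for Aqp8. They made up 34.7% of its exon reads in dormant (32.0 to 37.4%), 17.4% in reactivating (15.4 to 19.6%) and 18.7% in reactivated blastocysts (15.7 to 22.2%). The dormant library stood apart from the others. Over all genes the share was 9.96%, 10.6% and 9.76%. Aqp3 had 11.7%, 9.02% and 8.50%, Slc9a3r1 21.1%, 25.4% and 23.0%, and Aqp9 4.25% to 4.89% in the 3 states.

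**Figure D4:**
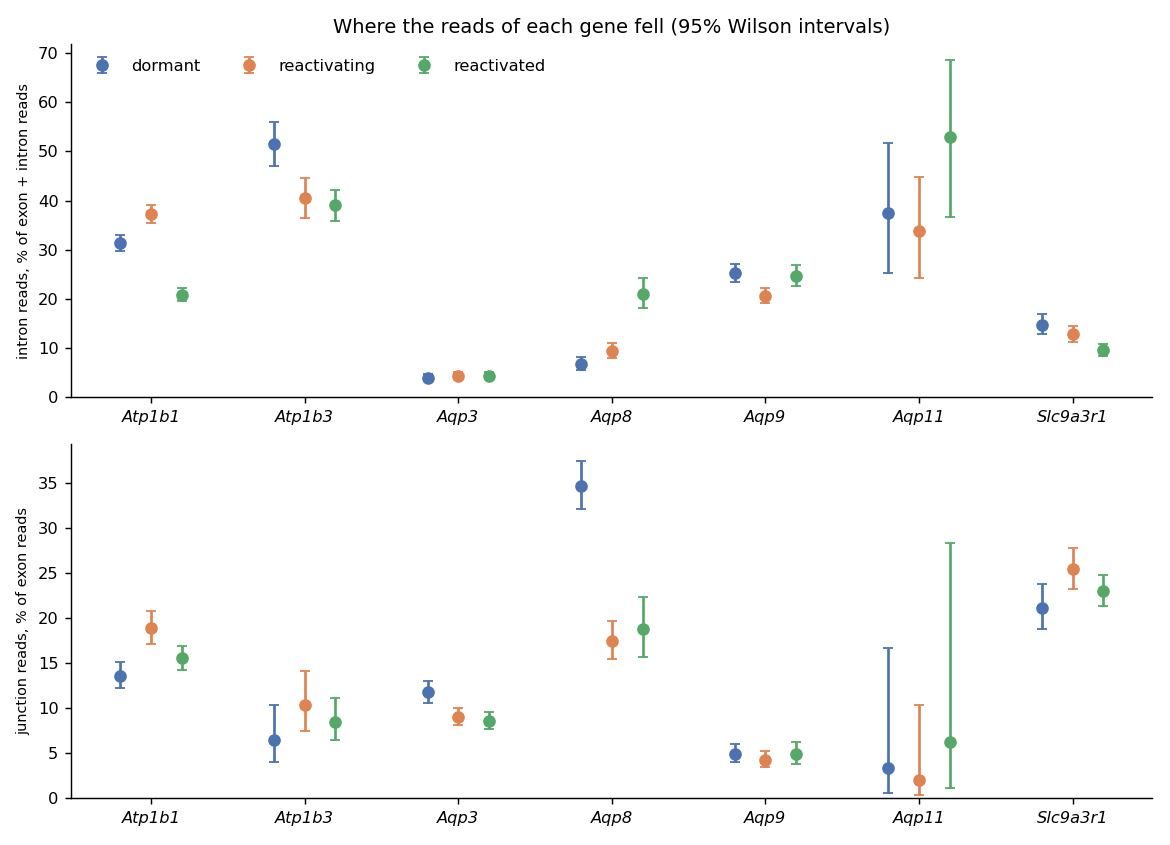
Share of reads in introns (top) and share of exon reads that cross a junction (bottom), in percent, for 7 of the genes in each library, with 95% Wilson intervals. Aqp8 stands out at 12 h in the top panel (20.97%) and in dormant blastocysts in the bottom panel (34.7%); Aqp11 rests on few reads.

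The wider pathway was read from 8 lists with 74 genes, of which 42 were tested for reactivated against dormant. Of these 3 were higher and 7 lower, where 12.9% of all genes tested were called and 7.66% were lower, with a median log2 difference of -0.22 beside -0.07 for all genes tested. For reactivating against dormant 0 of 40 were called, where 5.75% of all genes tested were called and 0.974% of protein-coding genes. For reactivated against reactivating 2 of 40 were higher and 12 lower, where 11.4% of all genes tested were called and 7.63% were lower. The median log2 difference there was -0.35, beside -0.13 for all genes tested. The epithelial sodium channel, which lets sodium into epithelial cells on the apical side, was lower in all 3 of its genes. Scnn1a fell to 3.82 RPKM in reactivated, against 16.1 RPKM in dormant blastocysts. Scnn1b fell to 8.10 RPKM in reactivated, against 22.6 in dormant, and Scnn1g to 2.77 in reactivated, against 12.3 in dormant blastocysts. Their log2 differences of -1.83, -1.38 and -1.82 stayed past the threshold in each of the 8 settings. Slc12a2, a sodium, potassium and chloride carrier, was at 4.32 RPKM in reactivated and 3.55 in dormant blastocysts, and the glucose carrier Slc5a1 and the chloride channel Cftr stayed under 0.2 RPKM. Of the 11 genes in this list of entry routes 7 were tested, and the other 4 were not called.

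FXYD proteins are small membrane proteins that tune the sodium pump, and the highest of them in dormant blastocysts was called lower at 12 h. Fxyd6 fell to 19.7 RPKM in reactivated blastocysts, against 105 in dormant ones, a ratio of 0.187 and a log2 difference of -2.36. Fxyd4 rose to 23.8 RPKM in reactivated, against 10.7 in dormant blastocysts (log2 difference 1.08). In reactivating blastocysts they stood at 122 and 6.33 RPKM, and the calls at 12 h against 6 h were the same (-2.57 and 1.76). The other 2 FXYD genes tested were not called. The summed level of the 7 was 120, 130 and 46.3 RPKM in dormant, reactivating and reactivated blastocysts.

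Around NHERF1, all 8 genes of scaffolds and their ezrin-family partners were tested. Pdzd3, a scaffold of the same PDZ class, fell to 4.26 RPKM in reactivated, against 13.3 in dormant blastocysts (log2 difference -1.44), and Podxl, an anti-adhesive apical protein, rose to 15.2 RPKM in reactivated, against 6.75 in dormant blastocysts (1.06). Moesin (Msn), which links actin to the membrane, was the highest at 359 RPKM in dormant, 398 in reactivating blastocysts and 194 in reactivated ones, called lower at 12 h against 6 h alone (-1.03) and there in 5 of the 8 settings. Ezrin (Ezr) stood at 37.3 RPKM in reactivated and 39.4 in dormant blastocysts.

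Among potassium channels and other ion-pumping ATPases 5 of 11 genes were tested. Atp12a, the alpha subunit of a proton and potassium pump, fell to 3.45 RPKM in reactivated, against 8.01 in dormant blastocysts (-1.02, lower in 5 of the 8 settings). Against reactivating blastocysts, at 10.77 RPKM, its log2 difference was -1.40, lower in each of the 8 settings. The potassium channel Kcnk1 stood at 1.76 RPKM in reactivated (66 reads), against 0.22 in dormant blastocysts (6 reads), and was called higher. In reactivated blastocysts Kcnk1 had 0 junction reads, and 55 opposite-strand reads beside its 66 exon reads. Another potassium channel, Kcnk5, stood at 15.9 RPKM in reactivated and 36.9 in reactivating blastocysts (-1.16, lower in 7 of the 8 settings). Of 7 kinase and ligase genes tested, Sgk1, a kinase that raises sodium channel and pump activity in epithelia, fell to 28.3 RPKM in reactivated, against 65.1 in reactivating blastocysts (-1.17, lower in 7 of the 8 settings), and 0 were called against dormant.

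**Figure D5:**
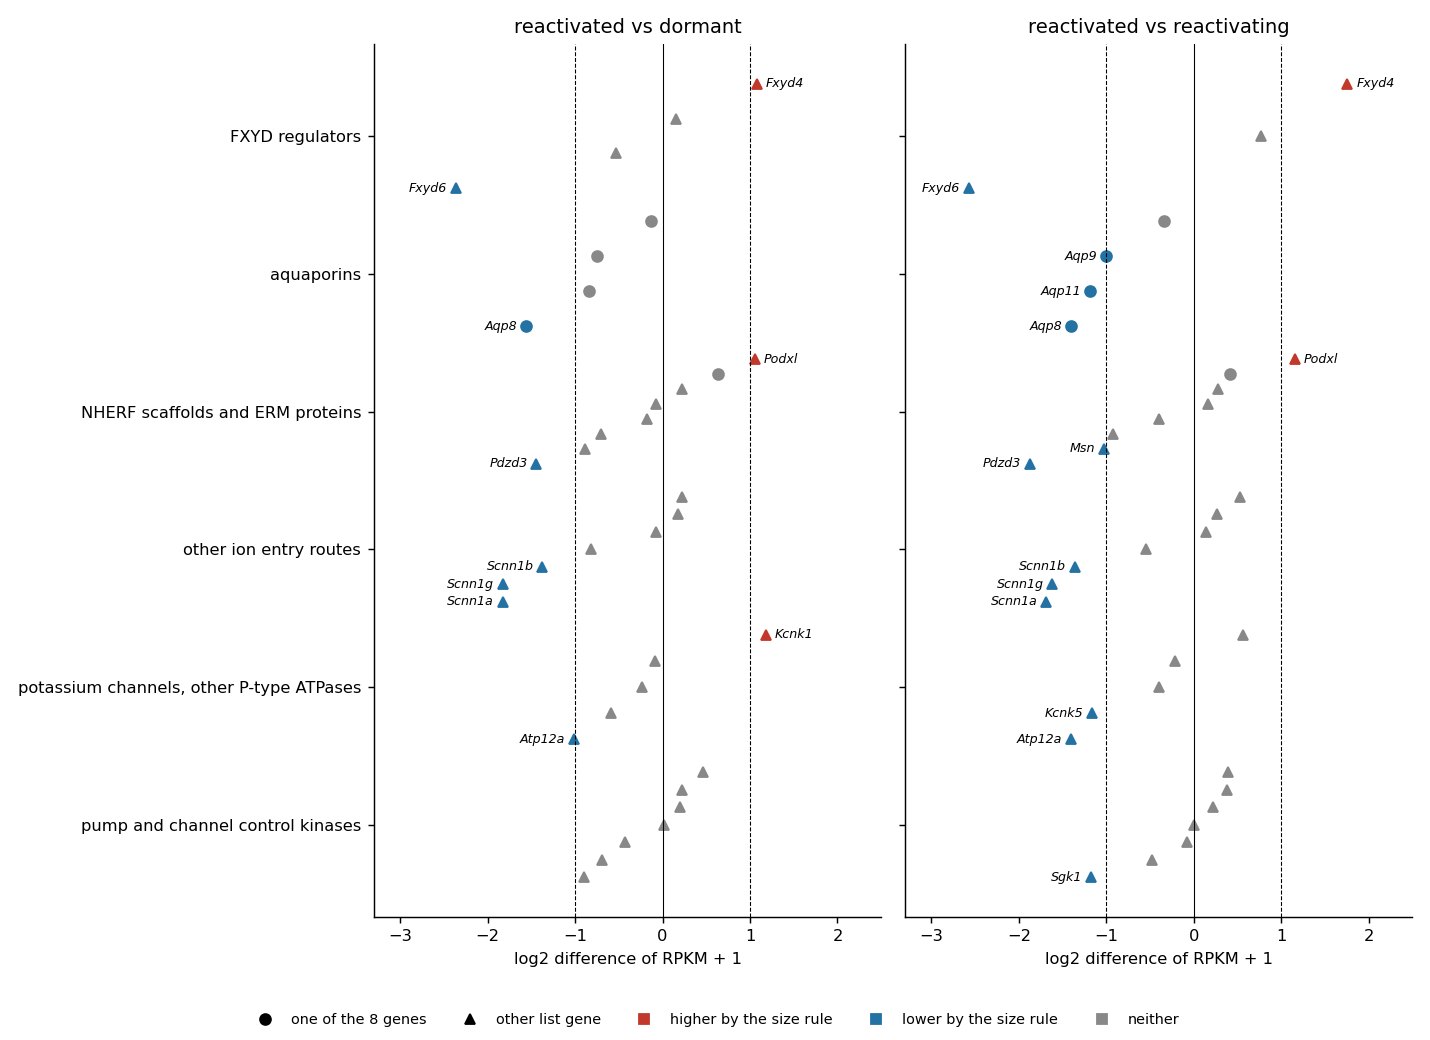
Log2 difference of RPKM + 1 (horizontal axis) for each tested gene of 6 of the lists, for reactivated against dormant (left) and against reactivating blastocysts (right), 1 library each. Dashed lines mark the thresholds of -1 and 1. The 3 sodium channel genes, Fxyd6, Aqp8, Pdzd3 and Atp12a lie left of the line at -1 in both panels. Fxyd4 and Podxl lie right of the line at 1 in both.

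Markers of uterine epithelium did not move one way. Their list of 8 summed to 71.7 RPKM in dormant, 72.9 in reactivating blastocysts and 29.4 in reactivated ones. Against dormant 4 were tested, and Wfdc2 and Lif were called lower at 12 h. Wfdc2 stood at 13.4 RPKM in reactivated and 30.1 in dormant blastocysts, and Lif at 9.55 RPKM in reactivated and 35.75 in dormant blastocysts, and these 2 genes held most of the sum. Muc1 stood at 1.56 RPKM in reactivated and 3.61 in dormant blastocysts, whereas Foxa2 stood at 3.60 RPKM in reactivated and 1.82 in dormant blastocysts, both with intervals apart and not called. Ltf and Ovgp1, products of uterine and oviduct epithelium, stayed under 1 RPKM. In dormant, reactivating and reactivated blastocysts Ltf had 11, 39 and 49 reads and Ovgp1 had 6, 13 and 3. Cldn10 had 0, 0 and 13 reads. The row listed as Sprr2f, at 0 in the dormant and reactivated libraries, is Sprr2i by its ID. Stromal markers summed to 4.12, 3.43 and 1.15 RPKM in dormant, reactivating and reactivated blastocysts. Red blood cell markers summed to at most 0.66 RPKM, with Hba-a1 and Hba-a2 at 0 in all 3 libraries. Immune markers summed to 28.3, 22.2 and 42.05 RPKM, with S100a8 and S100a9 higher and Tyrobp, Cd14 and Laptm5 lower at 12 h against dormant. The part of other cells in the aquaporin levels was not tested.

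Genes with the pattern most like those of the called aquaporins over the 3 libraries were sought among 6703 protein-coding genes, by the Euclidean distance between centred log2(RPKM + 1) values. Likeness over 3 points is given as a description. Nearest to Aqp8 were Sh3d21 (distance 0.012), the lipid kinase gene Pip5k1b (0.015) and Serpine2, a protease inhibitor (0.029). Sh3d21, for instance, stood at 37.3, 33.5 and 12.1 RPKM in dormant, reactivating and reactivated blastocysts. Nearest to Aqp9 were Frrs1l (0.011), Cds2, an enzyme of phospholipid synthesis (0.013), and Bcl3 (0.015). Nearest to Aqp11 were Smim19 (0.016), Traf4 (0.033) and the pyruvate carboxylase gene Pcx (0.035).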

How the data were processed

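The authors deposited, for each library, a table of 31510 genes with counts of reads in exons, in introns, across junctions and on the opposite strand, and an RPKM per gene, per the file headers. In every row exon and intron reads summed to the genome and junction reads less those in both. GRCm38 is the build in the submitters' processing notes. Which aligner, counter and annotation were used is not given in the sources used here. RPKM followed from exon reads, exon length and totals of 14118723, 15687239 and 18982195 reads (dormant, reactivating, reactivated) within 2% or 0.011 in all but 1 of 94530 values.

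Names and coordinates came from GENCODE M21 (26687 IDs matched), and promoters from RefSeq GRCm38.p6. Members and lists were chosen with earlier results of these data known. Named genes were the members, and list genes past the rule in any comparison or highest in their list, though some list genes, counted in the totals, are not reported here. Further list genes and markers, such as Slc12a2, Slc5a1, Cftr and Ezr, were named after their values were seen. Poisson, Clopper-Pearson and Wilson intervals (SciPy 1.17.1, statsmodels 0.14.6) cover counting error only. The tables hold no molecular identifiers, and PCR copies of a molecule count as separate reads. Transcripts were compared with BLAST 2.17.0 for shared stretches of at least 50 bases at 95% identity. Alternatives changed the pseudocount (0.1), the minimum level (none, 5 RPKM), the unit (CPM, at least 1 CPM and 20 reads) and the scaling (median-ratio, upper-quartile, nuclear genes without small RNA), and the total for intron reads (summed intron reads).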

Additional observations from a re-analysis of the deposited data

How the results depend on the processing

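No paired analysis was possible because each state was 1 library with no replicate, and for the same reason no library could be left out. In 7 alternatives the count of the 8 genes called stayed within 1.5 times in 20 of 21 cases. The exception was reactivated against dormant with a pseudocount of 0.1, which called 2 (Aqp8 and Aqp11) in place of 1. A fall from 3 calls to 2 lies within that limit, and occurred for reactivated against reactivating in several alternatives. There a minimum of 5 RPKM left out Aqp11, and median-ratio, upper-quartile and nuclear-gene scaling each lost the call of Aqp9. Among the 74 list genes, reactivating against dormant gave 1 call with a pseudocount of 0.1 (Fxyd3) and 1 with CPM (Kcnk1), in place of 0. Of 168 single log2 differences 136 stayed within their counting intervals and 32 moved beyond them, and of 24 intron ratios scaled to summed intron reads 19 and 5 did. None of the called differences of the 8 genes changed sign, which differences of that size could hardly do under these settings. For Aqp9 at 12 h against 6 h the 8 settings gave -1.08 to -0.83. Over all genes, a pseudocount of 0.1 called 1215, 2589 and 2374 genes for reactivating against dormant, reactivated against dormant and reactivated against reactivating, in place of 697, 1556 and 1381. A minimum of 5 RPKM called 316 and 900 in the first and last of these. The share of called genes that were higher, 40.7% for reactivated against dormant, was 51.9% with upper-quartile scaling and 31.5% with CPM. For reactivated against reactivating it was 33.4%, and 25.1% with CPM and 49.6%, 52.7% and 44.7% with median-ratio, upper-quartile and nuclear-gene scaling. Depth limits Aqp11 and Atp1b2, which rest on at most 51 and 11 exon reads.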

Other observations

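Reads on the strand opposite Aqp7, an aquaporin at under 1 RPKM in each library and chosen here after its values were seen, numbered 1179 in dormant, 1516 in reactivating blastocysts and 2308 in reactivated ones, beside 7, 6 and 1 exon reads on its own strand. The deposited gene length of Aqp7 was 62778 bases, beside 15066 in GENCODE M21, so these reads may lie outside the M21 gene. Their source was not tested. Aqp5, also chosen after its values were seen, had 1 exon read in dormant, 13 in reactivating blastocysts and 20 in reactivated ones, at most 0.74 RPKM.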
